A study of Mus musculus with 4 samples.

Results

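The genes described here encode 10 enzymes of the methionine cycle and of the choline oxidation that feeds it, namely Mat1a, Mat2a, Gnmt, Gamt, Ahcy, Bhmt, Bhmt2, Mtr, Cbs and Chdh. They were picked by name for their place in the pathway, with earlier results of these data known, and no measured value entered the rule. Their probes were those other than controls that carried these names on the arrays. This gave 20 probes for 10 genes, out of 39429 probes and 22326 genes with a RefSeq symbol. All 20 probes were well above background on all 4 arrays and 0 were saturated.

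C57BL/6N mice were studied at 4 weeks of age, in 4 groups with 1 one-colour array each: Pnpla7-/- liver, Pnpla7+/+ (WT) liver, Pnpla7-/- white adipose tissue (WAT) and Pnpla7+/+ (WT) WAT. PNPLA7 is a lysophospholipase, an enzyme that releases the remaining fatty acid from lysophosphatidylcholine, and the title of the series sets it in the supply of choline to the methionine cycle. Each array held equal amounts of RNA from 5 animals, so the spread between animals is not visible and no difference below has a replicate check, a test or a p-value. The extraction protocol names liver for all 4 samples, and the labels do not state which part of Pnpla7 was deleted, which fat depot was taken or the sex of the animals.

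In the methionine cycle, methionine is activated to S-adenosylmethionine (SAM), the methyl donor of most methylation reactions. The spent donor, S-adenosylhomocysteine, is split to homocysteine, which is either methylated back to methionine or drawn off toward cysteine. Liver is the main site of the cycle and can use betaine, the oxidation product of choline, as the methyl source for that last step.

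Levels were read by probes of 60 bases. Those below are shown for SAM synthesis (Mat2a), SAM use (Gnmt), the release of homocysteine (Ahcy) and choline oxidation (Chdh). Each is named with the first base of its target in the transcript, as the array annotation gives it, and placed on mouse build mm9 as in that annotation. The Gnmt probe (base 691) lies at chr17:46862894-46863042 on the minus strand, an interval longer than the probe. The Ahcy probe (base 442) lies at chr2:154891321-154891380 on the minus strand, the Mat2a probe (base 709) at chr6:72385926-72385985 on the minus strand, and the Chdh probe (base 1977) at chr14:30849978-30850037 on the plus strand. The annotation does not state the exon or UTR of each. No base is in capitals.
Gnmt: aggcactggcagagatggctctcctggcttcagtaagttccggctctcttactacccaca
Ahcy: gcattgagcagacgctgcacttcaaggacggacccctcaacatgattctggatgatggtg
Mat2a: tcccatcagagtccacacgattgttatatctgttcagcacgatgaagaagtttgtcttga
Chdh: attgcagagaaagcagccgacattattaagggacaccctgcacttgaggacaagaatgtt
The longest run shared between probes of different enzymes in the set was 12 bases, between a Chdh and a Bhmt probe. The 2 Gamt probes start at bases 877 and 883 and so read nearly the same stretch. Bhmt and Bhmt2, the related betaine-homocysteine methyltransferase genes, are neighbours on chromosome 13, where their probes lie 31.2 kb apart.

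The labels were checked first. The probe for Pnpla7 had a level of 7.98 times the 75th percentile of its array in labelled-knockout liver and 9.04 times in WT liver, a log2 ratio of -0.18 ± 0.20. In WAT it read 0.372 times in labelled-knockout and 0.739 times in WT animals, a log2 ratio of -0.99 ± 0.20. Here and below the error is that of the scanner software's error model, which covers the array only. For bright spots it comes almost wholly from a preset multiplicative error of 0.1, so it is near 0.20 for a ratio and is not a measured spread. Since the deleted part of the gene is not given, this probe does not settle the liver label, and the arrays are called labelled-knockout throughout. The tissues matched their names: all 15 hepatocyte markers were at least 2-fold higher in WT liver than in WT WAT (median log2 ratio 7.66), and the 7 adipocyte markers measured in both were all at least 2-fold lower (median -5.89). Liver markers were not absent from fat, and all 15 were well above background in WT WAT.

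Liver was set against WAT within each genotype. In WT animals, 8 of the 10 enzymes were at least 2-fold higher in liver, where 15.6% of 15304 measured genes were, and 1, Mat2a, was at least 2-fold lower, where 18.1% of genes were (33.7% in either direction). The median log2 ratio over the 10 enzymes was 6.55, beside -0.04 over all genes. In the labelled-knockout animals the counts were again 8 and 1, beside 13.7% and 17.7% of 15337 genes (31.4% in either direction), with a median of 5.89 beside -0.14. All values that follow are levels of a probe as a multiple of the 75th percentile of the array, followed by differences on the log2 scale. The WT background share depended on the background correction: it was 2380 genes higher and 2774 lower as used here, 2381 and 1824 with normexp at offset 50, and 3195 and 1944 at offset 1, while the enzyme counts of 8 and 1 were the same.

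**Figure D1:**
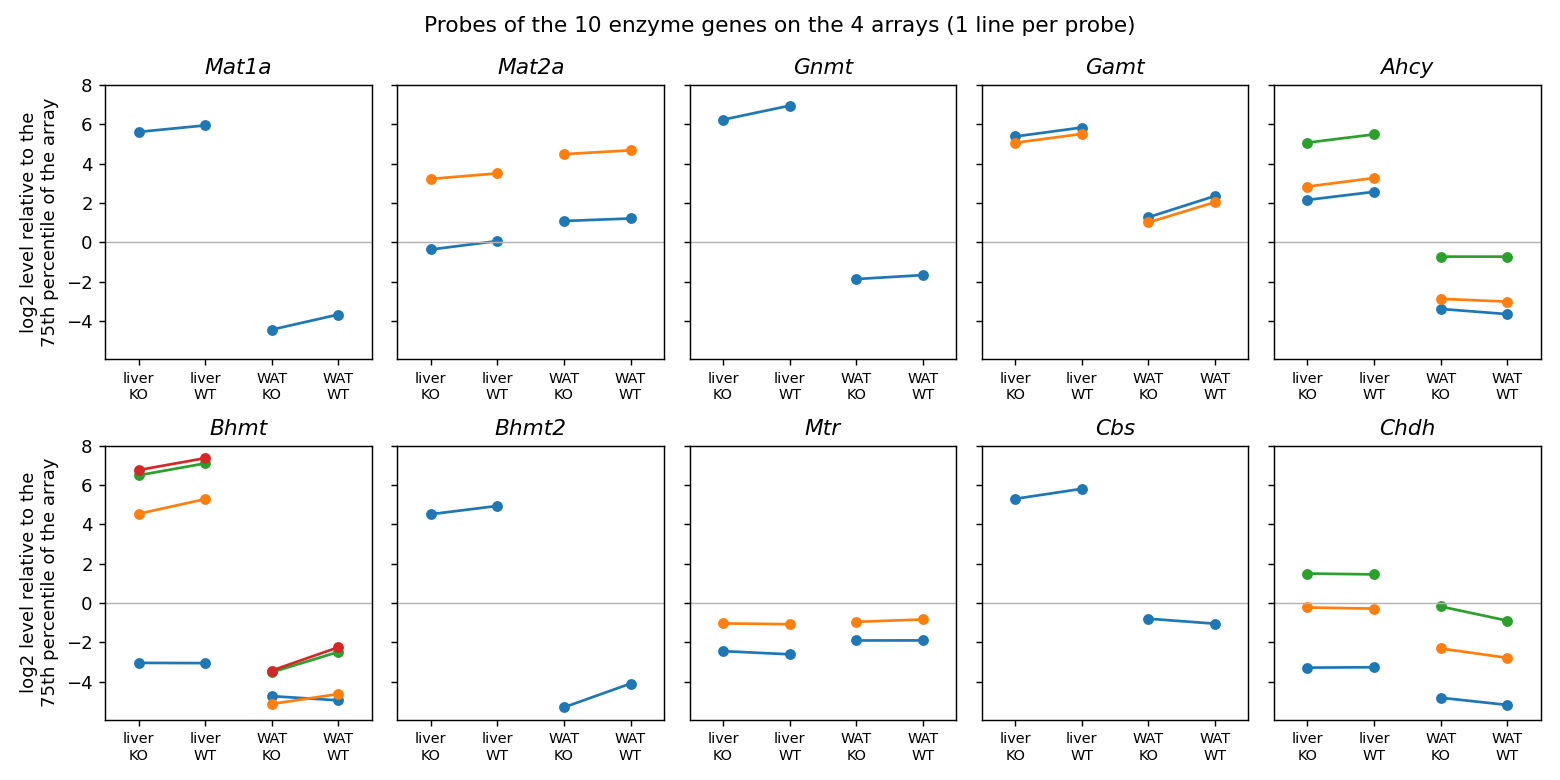
Log2 level of each probe relative to the 75th percentile of its array (vertical axis) on the 4 arrays (horizontal axis), with 1 panel per gene and 1 line per probe; there are no replicates and no error bars. Mat2a is the gene whose probes sit higher in WAT than in liver by more than 1 on this scale, Mtr is close to level, and 1 Bhmt probe stays low on every array.

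Of the enzymes that make SAM, Mat1a encodes the form of adult liver and Mat2a the form of most other tissues. Mat1a stood at 48.9 times the 75th percentile in labelled-knockout liver and 61.6 times in WT liver, against 0.0462 times in labelled-knockout WAT and 0.0787 times in WT WAT. The WT log2 ratio of liver over WAT was 9.61 ± 0.21 (782-fold), a ratio that 0.0261% of genes reached. Mat2a ran the other way. Its probe at base 2681 read 9.36 times in labelled-knockout liver and 11.3 times in WT liver, against 22.4 times in labelled-knockout WAT and 25.6 times in WT WAT. The gene's log2 ratio of liver over WAT was -1.35 ± 0.20 in labelled-knockout and -1.16 ± 0.20 in WT animals, and its 2 probes differed little in WT (-1.17 and -1.15).

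The SAM-dependent methyltransferases came next. Gnmt encodes glycine N-methyltransferase, which disposes of excess SAM by making sarcosine. Its level was 75.3 times the 75th percentile in labelled-knockout liver and 123 times in WT liver, against 0.275 times in labelled-knockout WAT and 0.316 times in WT WAT. Gamt encodes the enzyme that methylates guanidinoacetate to creatine. Its probe at base 877 read 41.7 times in labelled-knockout liver and 57.1 times in WT liver, against 2.42 times in labelled-knockout WAT and 5.13 times in WT WAT. The gap between tissues was thus smaller for Gamt, with a WT log2 ratio of 3.47 ± 0.20, than for Gnmt, at 8.61 ± 0.20.

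Ahcy encodes S-adenosylhomocysteine hydrolase, the step that yields homocysteine. Its probe at base 442, printed above, read 7.15 times the 75th percentile in labelled-knockout liver and 9.64 times in WT liver, against 0.137 times in labelled-knockout WAT and 0.124 times in WT WAT. The 3 Ahcy probes gave WT log2 ratios of liver over WAT between 6.21 and 6.28.

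Remethylation of homocysteine was represented by 3 genes. Bhmt uses betaine as the methyl donor, Bhmt2 uses S-methylmethionine, and Mtr, methionine synthase, uses methylfolate with cobalamin. The Bhmt probe at base 2001 read 109 times the 75th percentile in labelled-knockout liver and 165 times in WT liver, against 0.0930 times in labelled-knockout WAT and 0.211 times in WT WAT. Of the 4 Bhmt probes, 3 had WT log2 ratios of liver over WAT between 9.58 and 9.91, and the fourth, at base 642 of an Ensembl transcript, had 1.89. That probe was dim everywhere, at 0.122 and 0.121 times in the labelled-knockout and WT livers. Bhmt2 stood at 22.9 times in labelled-knockout liver and 30.7 times in WT liver, against 0.0255 times in labelled-knockout WAT and 0.0588 times in WT WAT. Mtr differed little between tissues. Its probe at base 4408 read 0.489 times in labelled-knockout liver and 0.476 times in WT liver, against 0.517 times in labelled-knockout WAT and 0.562 times in WT WAT, and the gene's WT log2 ratio of liver over WAT was -0.47 ± 0.21.

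Cbs, cystathionine beta-synthase, commits homocysteine to cysteine synthesis. It stood at 39.4 times the 75th percentile in labelled-knockout liver and 56.1 times in WT liver, against 0.577 times in labelled-knockout WAT and 0.485 times in WT WAT. Chdh encodes choline dehydrogenase, the mitochondrial enzyme that starts the conversion of choline to betaine. Its brightest probe, at base 5133, read 2.84 times in labelled-knockout liver and 2.75 times in WT liver, against 0.889 times in labelled-knockout WAT and 0.540 times in WT WAT. The WT log2 ratio of liver over WAT was 6.85 ± 0.20 for Cbs and 2.26 ± 0.23 for Chdh.

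**Figure D2:**
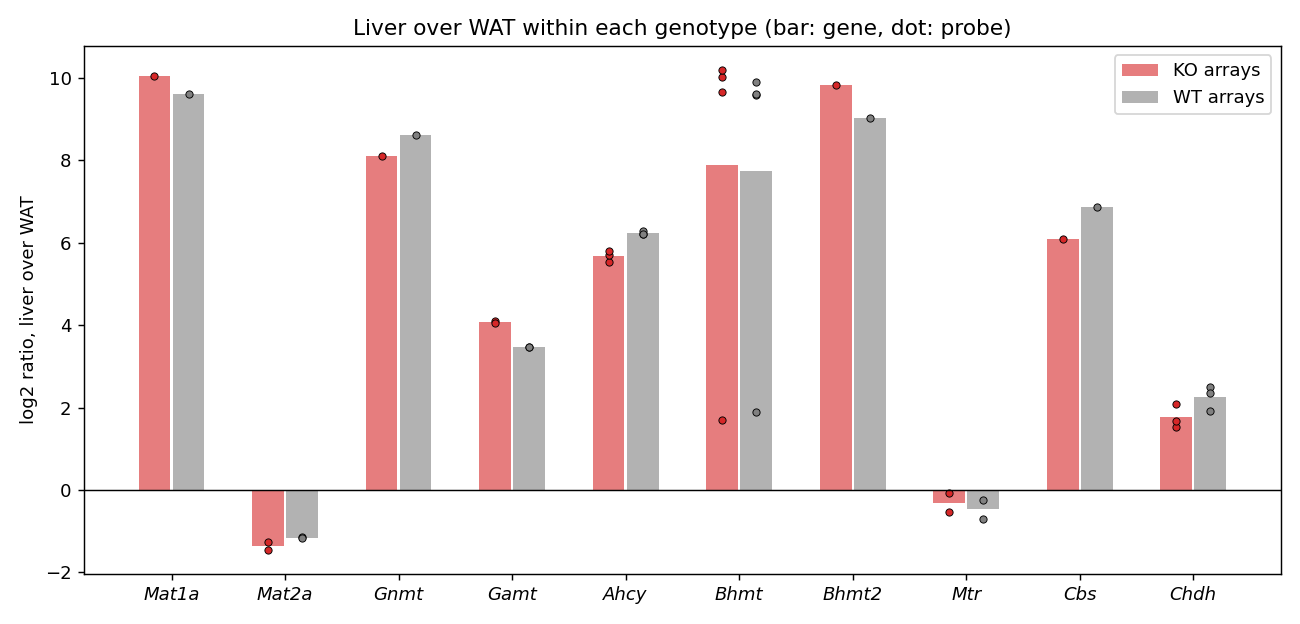
Log2 ratio of liver over WAT (vertical axis) for each enzyme gene (horizontal axis), in labelled-knockout (left bars) and WT (right bars) animals; bars are genes, dots are probes, and there are no replicates. Mat2a and Mtr lie below 0 and the other 8 genes lie between 1.76 and 10.05, with the dim Bhmt probe far under the other 3.

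Labelled-knockout liver was then set against WT liver, the comparison closest to the subject of the series. The enzymes were on the low side: 8 of 10 were lower in the labelled-knockout liver by more than the model error, where 21% of genes were, 0 were higher by more than it, where 16.6% of genes were, and Mtr and Chdh were within it. The largest difference was that of Gnmt, at a log2 ratio of -0.71 ± 0.20, a level 39.0% lower. The median over the 10 enzymes was -0.42, beside -0.03 over 15567 genes. None of the enzymes reached 2-fold in either direction, where 2.64% of genes did (1.75% higher and 0.886% lower).

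The log2 ratios of labelled-knockout over WT liver were taken by role. For SAM synthesis they were -0.33 ± 0.20 for Mat1a and -0.35 ± 0.20 for Mat2a. The probes of Mat2a read -0.43 and -0.28. For SAM use, Gamt had -0.45 ± 0.20 beside the -0.71 of Gnmt. Ahcy had -0.42 ± 0.20, and its 3 probes read between -0.43 and -0.41. Cbs had -0.51 ± 0.20.

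The remethylation arm was split. The 3 brighter Bhmt probes read -0.75, -0.61 and -0.60, and the dim one read 0.01, which brought the gene's log2 ratio to -0.49 ± 0.21. Bhmt2 had -0.42 ± 0.20. Mtr, the folate-dependent route, had 0.10 ± 0.21, with probes at 0.16 and 0.04. Chdh, at the head of choline oxidation, had 0.03 ± 0.21, and its 3 probes lay between -0.02 and 0.06. The pooled SD of the log2 ratio between probes of a gene was 0.20 in this comparison, and the 8 lower enzymes ranged from -0.71 to -0.33, with Mtr and Chdh above all 8.

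**Figure D3:**
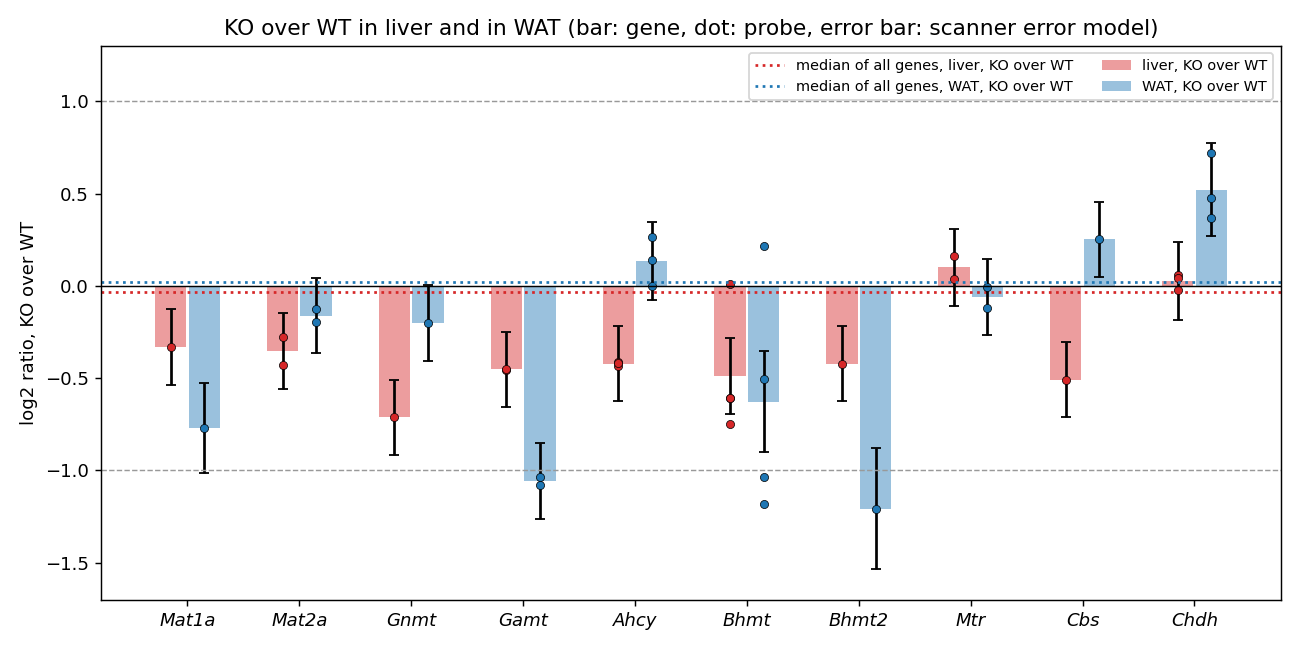
Log2 ratio of labelled-knockout over WT (vertical axis) for each enzyme gene (horizontal axis), in liver (left bars) and WAT (right bars); bars are genes, dots are probes, error bars are the scanner error model, dotted lines the medians of all genes and dashed lines 2-fold. In liver 8 genes lie between -0.71 and -0.33, and in WAT Gamt and Bhmt2 pass the lower dashed line.

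Brightly measured liver genes were lower in general. Among 958 genes at or above 16 times the 75th percentile (mean of both livers), the median log2 ratio of labelled-knockout over WT liver was -0.19 and 83.9% lay below 0. Mat1a, Gnmt, Gamt, Bhmt2 and Cbs belong to this range, whose 5th percentile was -0.65, so Gnmt lay below it and the other 4 above. Among 1707 genes between 4 and 16 times the median was -0.08 and the 5th percentile -0.53, and both Ahcy and Bhmt were above that percentile. The place of Bhmt here rests on its dim probe. Over its probes designed on RefSeq transcripts, a setting chosen after the data were seen, it had -0.654. Those probes were all above 16 times in both livers, the range with a 5th percentile of -0.649. Mat2a lies among 3148 genes between 1 and 4 times, with a median of -0.04 and a 5th percentile of -0.49. Mtr and Chdh lie in the range from 0.25 to 1 times, with a median of -0.01 over 3787 genes.

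**Figure D4:**
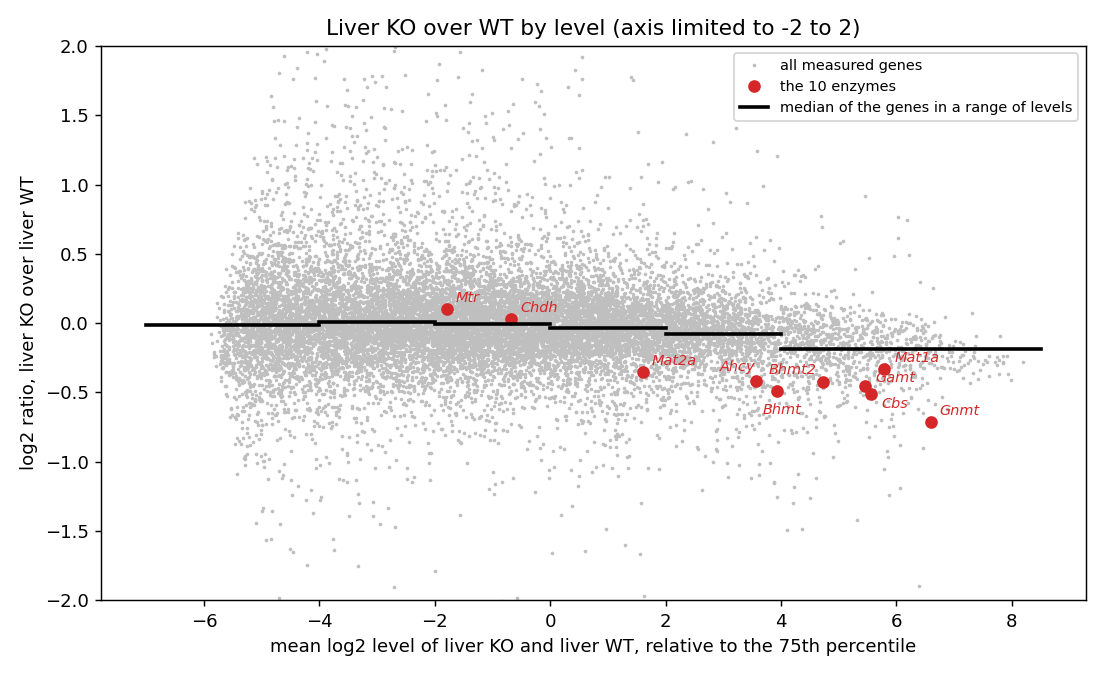
Log2 ratio of labelled-knockout over WT liver (vertical axis, limited to -2 to 2, which leaves out 63 genes) against the mean log2 level of both livers relative to the 75th percentile (horizontal axis); grey dots are all measured genes, red dots the 10 enzymes and black lines medians within ranges of level. The black line is at -0.19 in the brightest range, and 8 of the red dots lie below the line of their range.

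Markers of liver cells were mostly lower as well. Of 15 hepatocyte markers, 13 were lower in labelled-knockout liver, 0 by 2-fold, with a median log2 ratio of -0.28, and their summed level was 2112 times the 75th percentile there and 2520 times in WT liver. Periportal markers had a median of -0.39 (9 of 10 below 0) and pericentral markers one of -0.33 (8 of 10 below 0). Erythroid markers had a median of -0.87 over the 4 measured. All 9 measured proliferation markers were at least 2-fold higher in labelled-knockout liver, with a median of 1.48. The part of these differences in the enzyme values was not tested, and in tissue RNA fewer cells of a type and less RNA per cell cannot be told apart.

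The direction for Mtr and Chdh in liver depended on the background correction. With normexp at offset 50 they had -0.11 and -0.10, at a median of all genes of -0.19, and lay above that median under every setting tried. Over all genes 273 were at least 2-fold higher and 138 lower in labelled-knockout liver as measured here, 103 and 242 with normexp at offset 50, and 112 and 1440 at offset 1. No enzyme reached 2-fold in liver under any of the settings tried, and the median over the enzymes ranged from -0.43 to -0.28, the value nearest 0 with quantile normalization, where Mat1a had -0.10.

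The rest of the pathway was read from lists of genes next to the 10 enzymes. In liver 0 of 54 genes on the 6 lists reached 2-fold, where 2.64% of all genes did. Of all genes, 55.8% lay below 0 in labelled-knockout over WT liver. On the betaine and glycine side of choline oxidation all 10 genes did, with a median log2 ratio of -0.39. Among them Sardh (sarcosine dehydrogenase) had -0.67, Dmgdh (dimethylglycine dehydrogenase, the step after Bhmt) -0.57, and the betaine transporter gene Slc6a12 -0.42. On the list of transsulfuration and cysteine breakdown, downstream of Cbs, 9 of 10 lay below 0 with a median of -0.38. Ethe1 (persulfide dioxygenase) had -0.91, Suox (sulfite oxidase) -0.78, Cdo1 (cysteine dioxygenase) -0.47 and Cth (cystathionine gamma-lyase) -0.46. Both lists were bright, with median log2 levels of 4.82 and 4.04 in WT liver and 4.37 and 3.67 in labelled-knockout liver. Among all genes at or above 16 times the 75th percentile, a log2 level of 4, 83.9% lay below 0, with a median of -0.19. Between 4 and 16 times 64.7% did, with a median of -0.08. The part of brightness in the 2 list medians was not tested.

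The other lists were nearer the median of all genes. Remethylation by folate and cobalamin had a median of -0.10 over 9 genes, with Shmt1 (a serine hydroxymethyltransferase) at -0.72, the cobalamin carrier gene Tcn2 at -0.54 and the folate enzyme gene Mthfd1 at -0.48. Other small-molecule methyltransferases and creatine genes had a median of -0.11 over 10, with the indole methyltransferase gene Inmt at -0.69, Nnmt (nicotinamide methyltransferase) at -0.35 and the creatine transporter gene Slc6a8 at 0.67. Genes around S-adenosylhomocysteine hydrolysis had -0.08 over 5, among them Ahcyl1 (-0.35), Adk (adenosine kinase, -0.34), Ahcyl2 (0.20) and Mat2b (the regulatory subunit of the MAT2A enzyme, -0.08). Methionine salvage and polyamine genes had 0.06 over 10, among them Srm (spermidine synthase, 0.46), Apip (-0.40), Adi1 (-0.36) and Odc1 (ornithine decarboxylase, 0.14).

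Labelled-knockout WAT was set against WT WAT. Gamt and Bhmt2 were at least 2-fold lower, 2 of the 10 enzymes where 2.01% of 16130 genes were, and 0 enzymes were at least 2-fold higher where 2.16% of genes were (4.18% in either direction). With Mat1a and Bhmt, 4 enzymes were lower by more than the model error, where 23% of genes were. Chdh and Cbs, 2 of the 10, were higher by more than it, where 24.7% of genes were, and Mat2a, Gnmt, Ahcy and Mtr were within it. The median log2 ratio was -0.18, beside 0.02 over all genes. Most of these genes are dim in fat, and only Gamt and Mat2a had levels above the 75th percentile there.

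Gamt was read by 2 probes. They stood at 2.42 and 2.01 times the 75th percentile in labelled-knockout WAT, against 5.13 and 4.13 times in WT WAT. The log2 ratio was -1.06 ± 0.20, a level 52.0% lower, and it stayed between -1.16 and -1.03 under all settings tried. Bhmt2 had -1.21 ± 0.33, but its log2 level of -5.30 in labelled-knockout WAT was near -5.77, the lowest of any probe well above background on that array. With normexp at offset 50 its ratio was -0.48. Mat1a, also dim, had -0.77 ± 0.25, or -0.37 with that setting. The 3 brighter-in-liver Bhmt probes read -0.50, -1.03 and -1.18 in WAT and the fourth 0.21, for a gene value of -0.63 ± 0.27. It was -0.91 over the probes designed on RefSeq transcripts, a setting chosen after the data were seen, and -1.18 for the brightest probe alone, which made 3 enzymes at least 2-fold lower.

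Chdh was the enzyme with the highest WAT ratio, at 0.52 ± 0.25, and its 3 probes read 0.37, 0.48 and 0.72. Cbs had 0.25 ± 0.20, Ahcy 0.13 ± 0.21, Mtr -0.06 ± 0.21, Mat2a -0.16 ± 0.20 and Gnmt -0.20 ± 0.21. The pooled SD between probes of a gene was 0.23 in this comparison, and these last 5 ratios were at most 0.25 in size.

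The WAT pools differed in cell type markers. The median log2 ratio of labelled-knockout over WT WAT was -1.09 over 14 measured hepatocyte markers, of which 13 lay below 0 and 8 reached 2-fold. Albumin (Alb) stood at 3.37 times the 75th percentile in labelled-knockout WAT and 10.1 times in WT WAT. Their summed level was 132 times in labelled-knockout WAT and 95.6 times in WT WAT, of which Cyp2e1 made up 116 and 59.4 times. The enzymes that were lower, Gamt, Bhmt2, Mat1a and Bhmt, all had liver over WAT log2 ratios of at least 3.47 in WT, and so did Gnmt, Ahcy and Cbs, whose WAT ratios lay between -0.20 and 0.25. All 10 skeletal muscle markers were at least 2-fold higher in labelled-knockout WAT (median 4.21, summed level 49.3 against 3.40 times), as were all 7 thermogenic adipocyte markers (median 1.63). Adipocyte markers had a median of 0.16, with Lep (leptin) at -1.99, and macrophage and leukocyte markers one of -0.67. The part of these markers in the enzyme values was not tested.

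**Figure D5:**
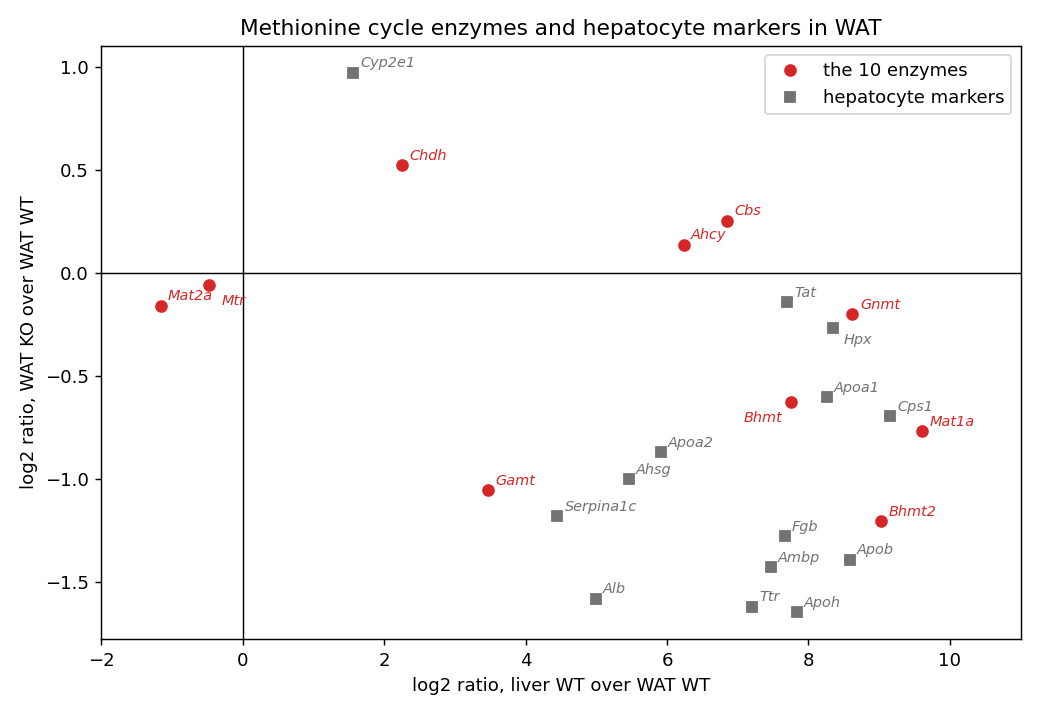
Log2 ratio of labelled-knockout over WT WAT (vertical axis) against log2 ratio of WT liver over WT WAT (horizontal axis) for the 10 enzymes (red dots) and 14 hepatocyte markers (grey squares), 1 array per group; both axes share the WT WAT array, so no relation is read from them. On the vertical axis Gamt, Bhmt2, Mat1a and Bhmt lie between -1.21 and -0.63, Gnmt, Mat2a and Mtr between -0.20 and -0.06, and Chdh, Cbs and Ahcy above 0.

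On the pathway lists, 2 of 53 measured genes reached 2-fold in labelled-knockout over WT WAT, where 4.18% of all genes did. Both were higher, where 2.16% of genes were. The 2 were Inmt, at a log2 ratio of 1.98, and Tst (thiosulfate sulfurtransferase) at 1.65. Transsulfuration and cysteine breakdown genes had a median of 0.32, with Mpst, another sulfurtransferase gene, at 0.83. On that list 9 of 10 lay above 0, where 52.8% of all genes did. Bright WAT genes were higher in general. Their median log2 ratio was 0.10 over 1688 genes between 4 and 16 times the 75th percentile. It was 0.18 over 668 genes at or above 16 times. The part of brightness in the list medians was not tested. The betaine and glycine side had -0.11 over 9 measured genes, with Etfdh, which passes electrons from the dehydrogenases to the respiratory chain, at 0.98. Remethylation by folate and cobalamin had 0.20, with Shmt1 at 0.65 and Tcn2 at 0.36. Genes around S-adenosylhomocysteine hydrolysis had 0.25, with Ahcyl1 at 0.77 and Ada (adenosine deaminase) at -0.66. The other methyltransferases had -0.08, with Gatm, the enzyme ahead of Gamt in creatine synthesis, at -0.36, and methionine salvage and polyamine genes 0.08, with Apip at 0.39 and Adi1 at 0.30.

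The 2 genotype differences were compared between tissues. The log2 ratio in liver minus that in WAT had a median of -0.03 over the 10 enzymes, beside -0.05 over 14895 genes measured on all 4 arrays. It was lowest for Cbs (-0.76), Ahcy (-0.56), Gnmt (-0.51) and Chdh (-0.49), and highest for Bhmt2 (0.79), Gamt (0.61) and Mat1a (0.44). Mat2a had -0.19, Bhmt 0.14 and Mtr 0.16. With 1 array per group these differences were not tested.

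The mean profile of the 10 enzymes over the 4 arrays, each gene taken relative to its own mean, was 2.42 in labelled-knockout liver, 2.78 in WT liver, -2.76 in labelled-knockout WAT and -2.44 in WT WAT on the log2 scale. Among 14877 genes, the nearest to it by Euclidean distance over these 4 values were Abat (0.11), Fgfr4 (0.17), Gm4788 (0.18), Slc25a15 (0.19) and Cdhr5 (0.25). The enzymes themselves lay between 0.83 (Ahcy) and 6.46 (Mat2a) from their own mean.

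The 250 bases ahead of the transcription start were taken from RefSeq (GRCm38.p6), where 9 of the 10 genes had 11 entries, 3 of them for Chdh. Those of Bhmt, Gnmt and Mat2a are shown because they belong to genes with opposite tissue preference: Bhmt and Gnmt, higher in liver, and Mat2a, higher in WAT. Capitals mark 3 motifs on either strand: the TATA box form TATAAA, the CCAAT box, and the nuclear receptor half-site AGGTCA. On the opposite strand the CCAAT box reads ATTGG, and the half-site reads TGACCT. The Bhmt stretch is chr13:93637759-93638008, the Gnmt stretch chr17:46729166-46729415 and the Mat2a stretch chr6:72439557-72439806, all on the minus strand and written in the direction of transcription.
Bhmt: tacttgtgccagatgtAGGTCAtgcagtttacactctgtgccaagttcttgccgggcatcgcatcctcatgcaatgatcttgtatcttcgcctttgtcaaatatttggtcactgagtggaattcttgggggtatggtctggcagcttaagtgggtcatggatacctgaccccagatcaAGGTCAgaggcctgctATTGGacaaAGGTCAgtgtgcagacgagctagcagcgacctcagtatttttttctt
Gnmt: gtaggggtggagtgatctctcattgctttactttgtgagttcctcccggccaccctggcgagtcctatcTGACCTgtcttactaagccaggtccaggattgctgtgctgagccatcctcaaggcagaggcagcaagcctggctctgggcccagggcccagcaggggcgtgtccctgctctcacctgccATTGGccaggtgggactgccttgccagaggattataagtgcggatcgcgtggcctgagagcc
Mat2a: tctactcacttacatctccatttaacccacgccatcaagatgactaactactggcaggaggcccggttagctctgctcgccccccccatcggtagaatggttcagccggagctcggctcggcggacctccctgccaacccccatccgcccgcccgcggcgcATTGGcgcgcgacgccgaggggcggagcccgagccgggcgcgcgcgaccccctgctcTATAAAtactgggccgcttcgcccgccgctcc
The Bhmt stretch holds AGGTCA 3 times, and those of Gnmt and Ahcy once each, a motif found in 14.0% of 32851 promoter stretches of this length. It was absent ahead of Bhmt2, Cbs, Gamt and Chdh, which were also higher in liver, and ahead of Mat2a and Mtr. The Mat2a stretch holds TATAAA, found in 12.4%. CCAAT, found in 33.8%, occurs ahead of Bhmt, Gnmt, Mat2a, Ahcy, Cbs and Mtr. CAAAGG, found in 17.6%, occurs ahead of Ahcy, Bhmt and 2 of the Chdh entries, and 1 of its 2 Bhmt matches overlaps an AGGTCA. TGATGNAA, found in 3.45%, occurs in none of the 11. CG pairs numbered 29 ahead of Mat2a, 21 ahead of Cbs, 20 ahead of Bhmt2 and Mtr, 12 ahead of Gamt, 9 ahead of Ahcy, 6 ahead of Gnmt, 5 ahead of Bhmt, and 20, 2 and 2 in the Chdh entries, beside a median of 6. The matches describe these letters and were not set against any binding data.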

How the data were processed

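The deposited scanner files hold spot intensity values (Cy3) made with Agilent Feature Extraction 11.0.1.1, per the submitters' processing notes. Per the file headers, the processed intensity is corrected for background and is not normalized between arrays. The deposited series table holds the same signal divided by the 75th percentile of each array, between 1470 and 1764, which was found by setting the table against the scanner files, and it served as an alternative. Per the labels, 200 ng of pooled RNA was labelled. The 4 arrays shared 1 slide and scan, and between 65.5% and 72.6% of their 43020 non-control spots were well above background.

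From these, log2 of the processed intensity minus the 75th percentile of the array was computed in Python 3.11.15. Between 79 and 110 outlier spots per array were left out and the spots of a probe averaged. A gene was the mean of its probes with more than a 0.5 share of spots well above background on both arrays and none saturated. Names were updated through a RefSeq table (GRCm38.p6). A difference was counted at 2-fold. Errors are those of the scanner software, with a preset multiplicative error of 0.1, and the SD between probes of a gene. Normexp used limma 3.58.1 (R 4.3.3). The averaging of probes to genes and the 2-fold call were tested on fold changes planted in the scaled WT liver levels. The other steps were not tested in this way.

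The 10 enzymes and all lists were chosen with earlier results of these data known. Named were the 10 enzymes, Pnpla7, up to 4 genes in liver and 2 in WAT with the largest ratios of each pathway list, the 5 genes of nearest profile, and the brightest of each marker list where a result turned on it. Lep and Cyp2e1 were named after their values were seen. Some genes that met this rule are left out.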

Additional observations from a re-analysis of the deposited data

Results flagged for a closer look

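In 3 of the 10 enzymes the labelled-knockout over WT log2 ratio had opposite signs in liver and in WAT, as it had in 56.7% of 14895 genes. Cbs had -0.51 in liver and 0.25 in WAT, a difference of -0.76 (liver minus WAT). Ahcy had -0.42 in liver and 0.13 in WAT, a difference of -0.56, but its WAT ratio was within the model error of 0.21 and was 0.00 for its brightest probe. Mtr had 0.10 in liver and -0.06 in WAT, a difference of 0.16, and both of its ratios were within the model error of 0.21, with a liver ratio of -0.11 after normexp at offset 50. With 1 array per group the differences between tissues were not tested.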

How the results depend on the processing

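The medians over the 10 enzymes and their counts at 2-fold, in each direction and in all 4 comparisons, were recomputed with normexp at 2 offsets, quantile normalization, scaling on probes measured in both arrays (75th percentile or median), the series table, the brightest probe, no filter on dim probes, outlier spots kept and, chosen after the data were seen, probes on RefSeq transcripts alone. Keeping dim probes or outlier spots could not change these values, because every enzyme probe passed both filters. The series table holds the same signal with nearly the same scaling, so it could hardly do so. Medians were held if they kept their direction and moved by less than the spread between probes, and counts if within 1.5 times. This was so in 118 of 120 cases, which include those settings. The exception was the number of enzymes at least 2-fold lower in labelled-knockout WAT, which was 2 as reported and 1 (Gamt) with normexp at offset 50 and also at offset 1. The ratio of Bhmt2 there was -0.48 and -0.75 under those settings. Of the values of single enzymes, 21 moved by more than the spread and 379 did not, settings that could not move them included. Of those that reached 2-fold, 0 reversed. Dim probes limit the WAT values, above all those of Bhmt2, Mat1a and Bhmt, and the cause of their shifts was not tested. Normexp moved the median of all genes by -0.16 in liver and by 0.25 in WT liver over WT WAT at offset 50. No paired analysis was possible because each group had 1 pooled array.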
